A study of Mus musculus with 8 samples.

Results

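The hair cycle signals described here are 50 genes of 9 signalling pathways, 15 of WNT, 9 of BMP, 7 of FGF, 4 each of hedgehog and IGF, 3 each of EGF, TGF-beta and the vascular and HGF factors, and 2 of the ectodysplasin pathway. They were chosen by symbol from the annotation of the Clariom S Mouse array, and each had 1 probe set, so that 50 of the 22206 probe sets tested are members. The arrays measured RNA of dorsal skin from male C3H mice, an inbred strain, that were 7 weeks old, acclimatised for 7 days, placed at random in groups of 8, trimmed and depilated with a cream, and then treated on the skin every day for 20 days. The groups were tieghemelin, maslinic acid (a pentacyclic triterpene acid), minoxidil (a drug used against hair loss) and Milli-Q water as control, with 2 arrays each. All compounds are labelled as applied at 1%, although the source name of minoxidil replicate 2 gives 2%. The titles of both control arrays name them as controls for tieghemelin and maslinic acid, and minoxidil was set against the same arrays. Depilation, strain, sex and age are shared by all groups. The labels do not say whether the 2 arrays of a group come from separate mice or from pools, so the p-values given cover the differences among these arrays alone, and those may be technical.

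Hair follicles pass through growth (anagen), regression (catagen) and rest (telogen), and depilation starts a new growth phase. WNT ligands and hedgehog signals promote the onset of growth, BMP ligands hold stem cells of the follicle at rest, and BMP antagonists such as noggin lift that hold. FGF7 and FGF10 from the dermal papilla favour growth, whereas FGF5 ends it and FGF18 prolongs rest. By such background knowledge 21 members were placed on the side of growth, 13 on the side of rest, and 16 on neither. The rest side holds Wif1, Dkk1, Sfrp1, Bmp2, Bmp4, Bmp6, Id1, Id2, Id3, Fgf5, Fgf18, Igfbp3 and Tgfb1. Sfrp2, Bmp7, Tgfb2 and Igfbp5, which are relatives of rest members, were placed on neither side.

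Bmp6 had the largest difference from control under tieghemelin among the members above background on all 8 arrays. Fgf22 had the largest difference between treatments among the members above background in both groups. The upstream sequences of these genes are shown as examples. They are the 250 bases before the start of each gene in RefSeq, build GRCm38.p6, on the + strand, 5' to 3', at chr13:38345466-38345715 for Bmp6 and chr10:79754859-79755108 for Fgf22, and capitals mark motif matches.
Bmp6: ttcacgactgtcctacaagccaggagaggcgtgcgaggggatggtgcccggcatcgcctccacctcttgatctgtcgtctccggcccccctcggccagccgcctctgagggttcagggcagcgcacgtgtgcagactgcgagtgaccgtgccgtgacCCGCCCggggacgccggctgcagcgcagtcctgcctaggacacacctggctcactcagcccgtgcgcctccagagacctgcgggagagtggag
Fgf22: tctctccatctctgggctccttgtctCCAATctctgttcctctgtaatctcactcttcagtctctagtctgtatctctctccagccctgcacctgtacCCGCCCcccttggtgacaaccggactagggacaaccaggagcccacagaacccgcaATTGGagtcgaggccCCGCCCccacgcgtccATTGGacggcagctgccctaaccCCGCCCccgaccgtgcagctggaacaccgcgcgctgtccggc
The motifs searched, on both strands and in letters that do not overlap one another here, were CTTTGA and CTTTGT for TCF/LEF, GACCACCC for GLI, GGCGCC for SMAD1/5, GGGCGG for the GC box and CCAAT for the CCAAT box. The Bmp6 window held 1 GC box, starting at position -93 from the start site, and none of the other motifs. The Fgf22 window held 3 GC boxes, at -152, -81 and -42, and 3 CCAAT boxes, at -224, -96 and -65. Among 32851 RefSeq windows of the same length 32.7% held a GC box, 33.9% a CCAAT box, 13.8% CTTTGA, 16.5% CTTTGT, 9.59% GGCGCC and 0.703% GACCACCC. Of the 37 members that had a window, 25 held a GC box, 8 a CCAAT box, 5 CTTTGA, 6 CTTTGT, 8 GGCGCC and 0 GACCACCC. Dkk1, a secreted WNT inhibitor, and Igf1, a growth factor, each held both TCF/LEF forms. These matches describe letters in a window and are not binding sites.

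Control replicate 1 stood apart from the other arrays before any group was compared. Its values correlated with those of the other arrays at r between 0.518 and 0.538 over all probe sets, against 0.901 to 0.966 among the other 7. Its value lay outside the range of the other 7 for 37 of 50 members, 23 above and 14 below, or 74.0%, and for 65.4% of all probe sets. The median difference between the 2 arrays of a group over the members was 0.219 log2 units with tieghemelin, 0.268 with maslinic acid, 0.428 with minoxidil and 0.928 in control. Each comparison with control is therefore given with all arrays and again without control replicate 1, and the lone control array is then assumed to vary like the arrays of the other groups.

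Markers of the tissue were measured on the same arrays. Of 9 listed keratinocyte genes 8 had a probe set and 7 were above background on all 7 arrays other than control replicate 1, and Lor, a gene of the cornified layer, was above it on none of them. The mean of the keratinocyte list per array was 8.56 and 8.84 with tieghemelin, 9.37 and 8.87 with maslinic acid, 9.85 and 8.76 with minoxidil, and 8.77 and 10.33 in control. Of 8 dermal papilla genes 6 were above background on all 7 arrays, the exceptions being Alx4 and Sox18, and the list mean kept to between 7.77 and 8.09 on all 8 arrays. Of 6 hair matrix genes Msx2, Foxn1, Hoxc13 and Dlx3 were above background on none of the 7, and Mki67 was above it on all 7. Top2a was above it at 8.60 and 7.30 with tieghemelin, 8.44 and 8.13 with maslinic acid and 7.68 on control replicate 2. With minoxidil Top2a was below it, at 6.37 and 6.90. Of 7 inner root sheath genes 6 were above background on all 7 arrays. The skeletal muscle list, with 8 of 8 genes measured and 7 above background on all 7 arrays, had a mean of 9.50 and 8.74 with tieghemelin, 12.83 and 9.55 with maslinic acid, 11.75 and 11.30 with minoxidil, and 13.71 and 15.05 in control, so both control arrays held the highest levels. The part of these differences in the results for the members was not tested. In such skin samples fewer cells of a type and less RNA per cell cannot be told apart.

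Levels of the members were set against the 23 antigenomic probe sets, whose sequences are designed to be absent from the genome and which show the background of an array. Their median was 7.02 and 6.97 with tieghemelin, 6.96 and 7.08 with maslinic acid, 7.51 and 7.33 with minoxidil, and 7.75 and 7.61 in control. Between 25 and 32 of the 50 members were above that median on an array, against 56.9% to 80.3% of all probe sets. Passing this median does not amount to a call that a transcript is present. Over the 7 arrays other than control replicate 1, 23 members were above it on all, 11 on some and 16 on none, and 4 (Fgf22, Shh, Igf1 and Vegfa) were above the highest antigenomic value on all 7.

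By pathway, the members above the antigenomic median on all 7 arrays were 5 of 15 for WNT (Wnt5a, Wnt10a, Wif1, Dkk1 and Sfrp2), 3 of 9 for BMP (Bmp6, Id1 and Id2), 5 of 7 for FGF (Fgf7, Fgf10, Fgf18, Fgf22 and Fgfr1), 2 of 4 for hedgehog (Shh and Gli1) and 2 of 4 for IGF (Igf1 and Igfbp5). All 3 TGF-beta members (Tgfb1, Tgfb2 and Ccn2) and both ectodysplasin members (Eda and Edar) were above it, with 1 of 3 vascular and HGF members (Vegfa) and 0 of 3 EGF members. The 16 that were above it on none of the 7 include several genes often read in hair cycle work, namely the WNT target Axin2, the ligands Wnt7b, Wnt10b, Bmp2, Bmp4 and Fgf5, the BMP target Id3 and the hedgehog transducer Gli2. Of these 16, Wnt3, Wnt10b, Axin2, Grem1, Fgfr2 and Egf were above the median on control replicate 1 alone. The growth side had 9 of 21 members above background on all 7 arrays and the rest side 7 of 13.

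**Figure D1:**
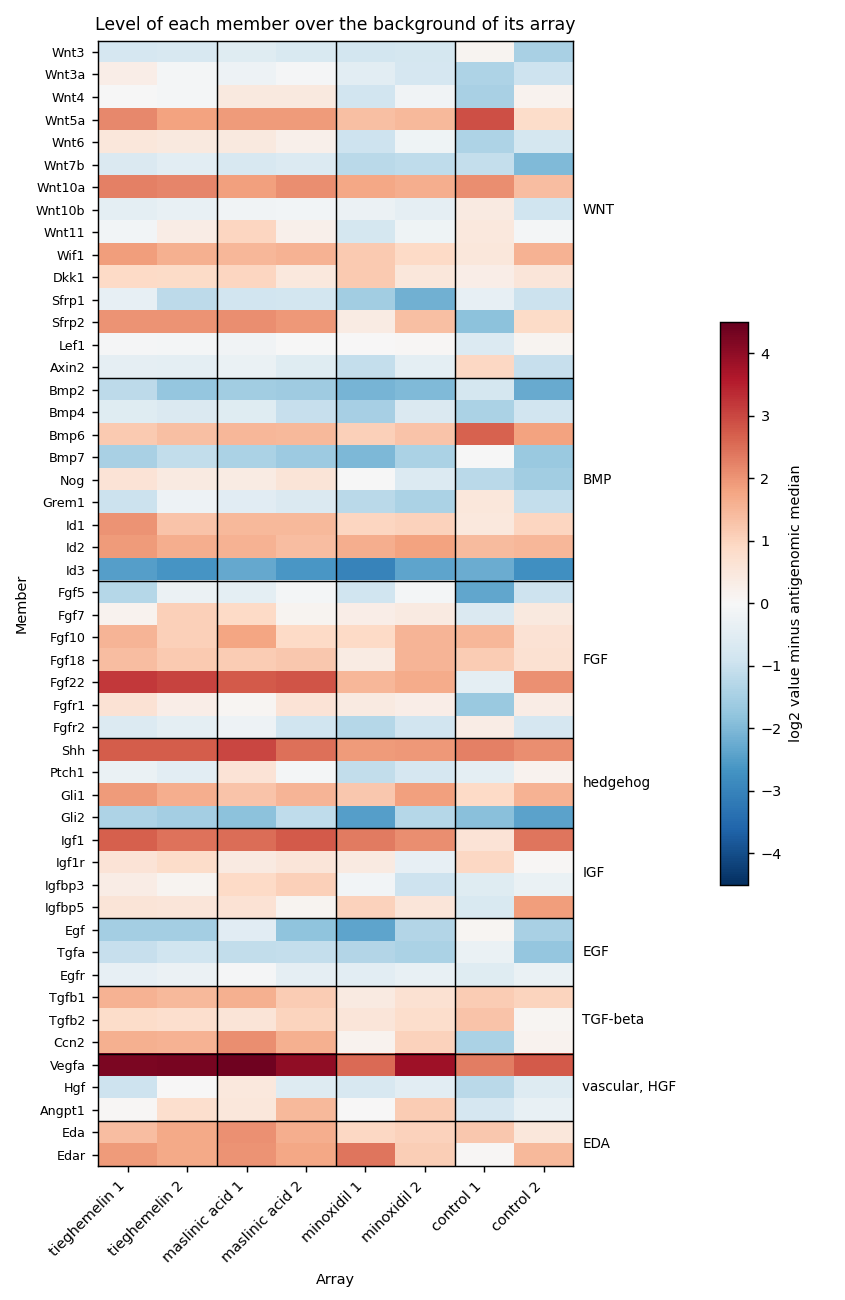
Heat map of the 50 members (rows, by pathway) on the 8 arrays (columns), with colour giving the log2 value minus the antigenomic median of the same array. Vegfa, Shh and Igf1 are red on all 8 arrays, Fgf22 is red on the 7 arrays other than control replicate 1, and Id3, Bmp2 and Gli2 are blue on all 8.

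Against control, 0 of 50 members passed limma's test at an adjusted p under 0.05 for any treatment, with all arrays or without control replicate 1. Of all probe sets 0% passed with all arrays, and 0.356% for tieghemelin and 0.0045% each for maslinic acid and minoxidil without control replicate 1. The smallest adjusted p of a member was 0.41 with tieghemelin, 0.448 with maslinic acid and 0.44 with minoxidil, and 0.086, 0.106 and 0.217 without control replicate 1. The study itself took a change of at least 1.7-fold with an unadjusted p of at most 0.05, and members are counted at those thresholds below. Tieghemelin had 8 such members (5 higher, 3 lower than control), where 11.7% of all probe sets met the thresholds (7.02% higher, 4.73% lower), and 7 without control replicate 1, where 13.7% did. Maslinic acid had 5 (3 higher, 2 lower) against a background of 10.8% (6.39% higher, 4.45% lower), and 5 without that array against 12.8%. Minoxidil had 4 (0 higher, 4 lower) against a background of 11.3% (6.98% higher, 4.29% lower), and 6 without that array against 12.9%. With all arrays the same numbers of members had an unadjusted p under 0.05, as did the same shares of all probe sets. As shares of 50 these counts lie near the shares of all probe sets. The median difference of the members was -0.24 with tieghemelin, -0.34 with maslinic acid and -0.16 with minoxidil, beside medians over all probe sets of 0.05, 0.05 and 0.06, and it was -0.12, -0.06 and -0.16 without control replicate 1. These comparisons share their control arrays.

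Control replicate 1 alone gave other counts. Without control replicate 2, 23 members were at the study's thresholds with tieghemelin, 26 with maslinic acid and 24 with minoxidil, beside 47.5%, 47.3% and 47.3% of all probe sets. In the same fits 19, 19 and 21 members had a limma adjusted p under 0.05, beside 37.9%, 37.3% and 37.7% of all probe sets. Leaving out a treated array also moved the counts, and for these fits no share of all probe sets is given here. The tieghemelin count was 1 without either tieghemelin array and 4 without any 1 array of the other treatments, the maslinic acid count was 2 without either of its arrays and 3 without either tieghemelin array, and the minoxidil count was 1 without minoxidil replicate 1. The members at the thresholds both with and without control replicate 1 were Bmp6, Nog and Ptch1 for tieghemelin, Bmp6, Nog and Ccn2 for maslinic acid, and Bmp6, Ptch1 and Sfrp1 for minoxidil.

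**Figure D2:**
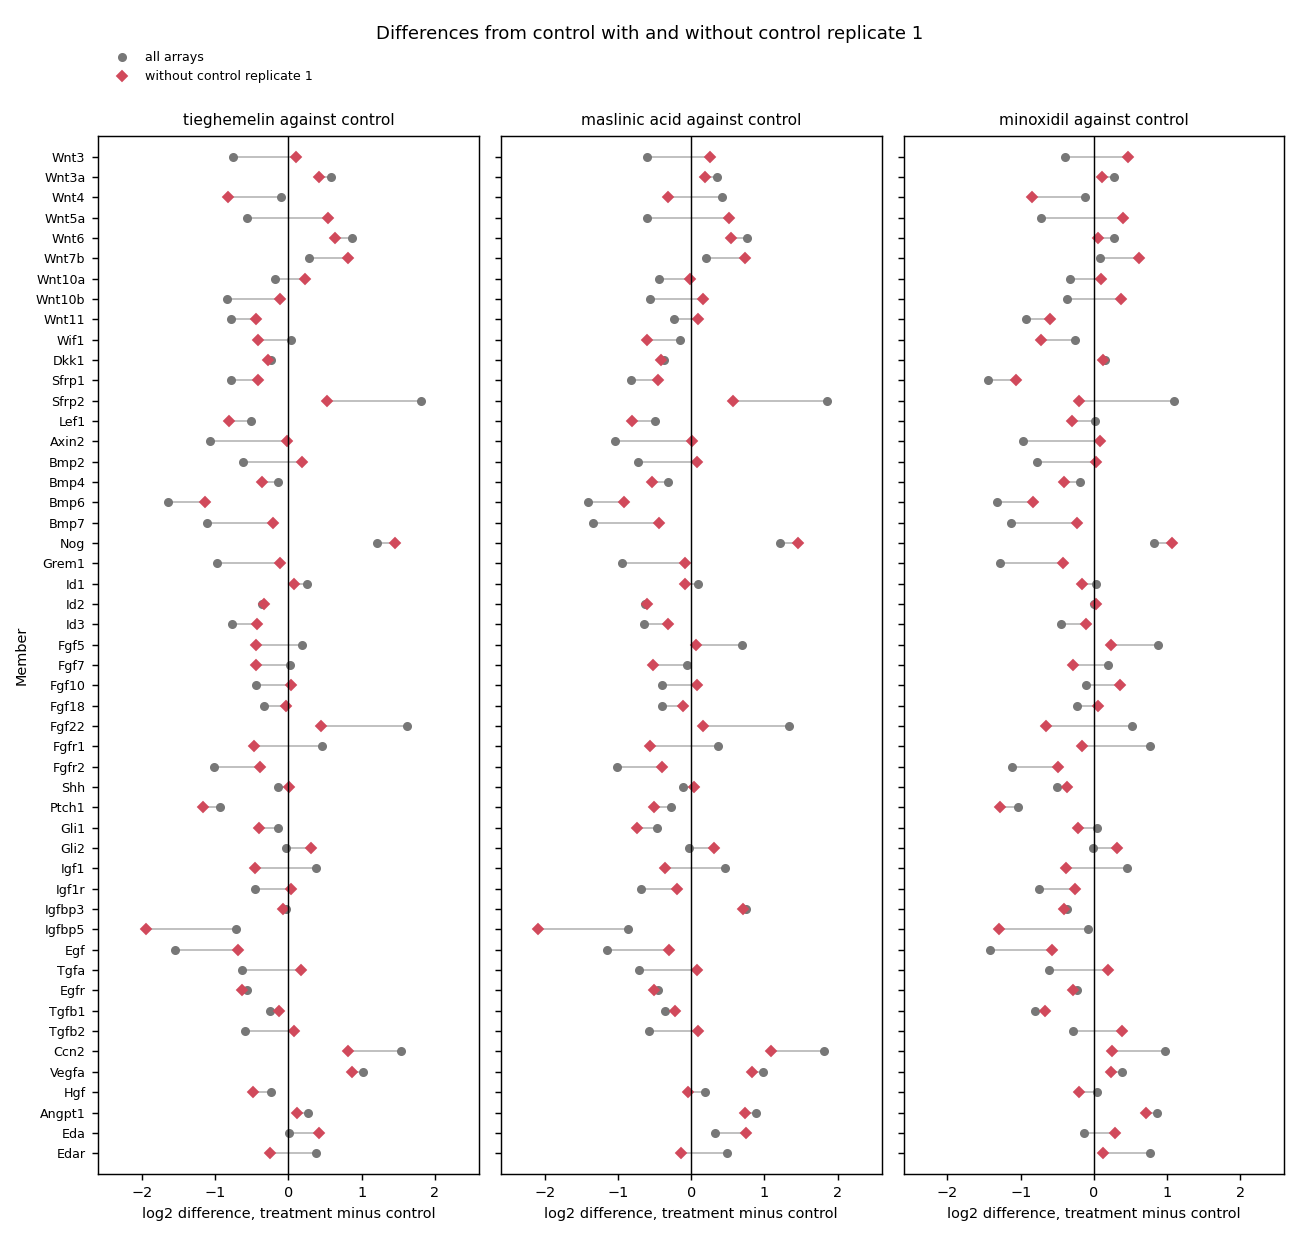
The log2 difference of each member (rows) from control in 3 panels, 1 per treatment, with all arrays (grey circles) and without control replicate 1 (red diamonds), joined by a line. Bmp6 lies left of 0 and Nog right of 0 in all panels with either symbol, whereas Sfrp2, Fgf22 and Igfbp5 move far along the axis.

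Bmp6, a BMP ligand made by cells of the stem cell niche of the follicle, was lower than both control arrays on all 6 treated arrays. It read 8.21 and 8.34 with tieghemelin, 8.46 and 8.54 with maslinic acid, 8.57 and 8.62 with minoxidil, and 10.42 and 9.42 in control. All 8 values were above the antigenomic median of their arrays. The log2 difference from control was -1.64 (SE 0.41, limma adjusted p = 0.41) with tieghemelin, -1.41 (SE 0.41, adjusted p = 0.448) with maslinic acid and -1.32 (SE 0.41, adjusted p = 0.44) with minoxidil. Without control replicate 1 the differences were -1.14, -0.92 and -0.83, and without control replicate 2 they were -2.14, -1.91 and -1.82. Since every treated array was below both control arrays, leaving out a control array could change the size of the difference and not its direction.

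Nog, which encodes the BMP antagonist noggin, was higher than both control arrays on all treated arrays. It read 7.62 and 7.38 with tieghemelin, 7.35 and 7.68 with maslinic acid, 7.51 and 6.73 with minoxidil, and 6.54 and 6.05 in control. It was above the antigenomic median on all 4 tieghemelin and maslinic acid arrays and on no minoxidil or control array. Minoxidil replicate 1 narrowly missed its median, at 7.509 against 7.512. It read higher than tieghemelin replicate 2 and maslinic acid replicate 1, whose medians were lower, at 6.97 and 6.96. The contrast with minoxidil in these counts thus depends on the background of each array. The log2 difference was 1.21 with tieghemelin (SE 0.41, limma adjusted p = 0.41) and 1.22 with maslinic acid (SE 0.41, adjusted p = 0.448). Because both control values were under the background of their arrays, 7.75 and 7.61, and the treated means did not pass that background, no fold is given. Without control replicate 1 the differences were 1.45 and 1.46, and 1.07 with minoxidil, where both groups were below background.

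No read-out of BMP signalling was below both control arrays on every treated array, as Bmp6 was. Id1, a direct BMP target, read 9.04 and 8.27 with tieghemelin, 8.43 and 8.55 with maslinic acid, 8.46 and 8.37 with minoxidil, and 8.21 and 8.58 in control, and the treated arrays overlapped with control. Id2 read 8.92 and 8.62 with tieghemelin, 8.53 and 8.48 with maslinic acid, 9.13 and 9.15 with minoxidil, and 9.17 and 9.11 in control, and the 4 tieghemelin and maslinic acid arrays were below both control arrays. Its difference was -0.63 with maslinic acid and -0.37 with tieghemelin, both under the 1.7-fold threshold. Id3 was below background on all 8 arrays, at 4.55 and 4.30 with tieghemelin, 4.65 and 4.44 with maslinic acid, 4.52 and 4.97 with minoxidil, and 5.53 and 4.86 in control. Its tieghemelin and maslinic acid arrays were also below both control arrays, by -0.77 and -0.65. The tieghemelin difference passed the study's fold threshold and missed its p threshold. The ligands Bmp2, Bmp4 and Bmp7 were below background on all 8 arrays, and the antagonist Grem1 on all but control replicate 1. Bmp7 met the thresholds for maslinic acid at -1.34 with values of 5.53 and 5.45 with maslinic acid and 7.73 and 5.93 in control, all under background, and at -0.44 without control replicate 1 it did not.

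Among WNT ligands, Wnt5a and Wnt10a were above background on all 8 arrays. Wnt5a, a ligand that mostly signals without beta-catenin, read 9.19 and 8.76 with tieghemelin, 8.89 and 9.004 with maslinic acid, 8.85 and 8.79 with minoxidil, and 10.67 and 8.43 in control, so the treated arrays lay between the control arrays. Wnt10a, a beta-catenin ligand of the follicle epithelium, read 9.29 and 9.18 with tieghemelin, 8.80 and 9.17 with maslinic acid, 9.25 and 8.95 with minoxidil, and 9.84 and 9.003 in control, again with overlap for maslinic acid and minoxidil and values between the control arrays for tieghemelin. Wnt6 met the thresholds with tieghemelin, at 7.52 and 7.40 there and 6.36 and 6.82 in control, a difference of 0.87 (SE 0.37, limma adjusted p = 0.424). Both control values were under background and the tieghemelin mean did not pass it, so no fold is given, and the difference was 0.64 without control replicate 1. Wnt4 read 6.99 and 6.88 with tieghemelin, 6.65 and 7.17 with minoxidil, and 6.31 and 7.76 in control, and those treated arrays were not above background. Against control replicate 2 alone it was lower, with a fold bound of 1.70 for tieghemelin and 1.27 for minoxidil. These bounds do not allow for the higher background of that control array. Wnt3, Wnt7b and Wnt10b were below background on the 7 arrays other than control replicate 1. Wnt3a, a beta-catenin ligand, was above background on 1 tieghemelin array and no other, and ranged from 6.37 to 7.34. Wnt11, which mostly signals without beta-catenin, ranged from 6.73 to 8.21 and met the thresholds in no comparison with all arrays.

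Among WNT inhibitors, Sfrp2, a secreted Frizzled-related protein of the dermis, had the largest WNT difference with tieghemelin and maslinic acid. It read 9.05 and 8.99 with tieghemelin, 9.07 and 9.05 with maslinic acid, 7.89 and 8.69 with minoxidil, and 5.91 and 8.49 in control. The differences were 1.82 with tieghemelin (SE 0.75, limma adjusted p = 0.419) and 1.85 with maslinic acid (SE 0.75, adjusted p = 0.457). They were 0.53 and 0.57 without control replicate 1, and without control replicate 2 they were 3.11 and 3.14, and control replicate 1 was the only array below background. Sfrp1, a related inhibitor, was lower with minoxidil by -1.44 (SE 0.48, limma adjusted p = 0.44) and by -1.07 without control replicate 1, at 5.97 and 5.17 against 7.38 and 6.64 in control, and all 8 arrays were below background. Dkk1, which blocks the LRP co-receptors, and Wif1, which binds WNT ligands, were above background on all 8 arrays and met the thresholds in no comparison with control.

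The WNT target Axin2 was above background on control replicate 1 alone. It read 6.61 and 6.52 with tieghemelin, 6.67 and 6.52 with maslinic acid, 6.43 and 6.90 with minoxidil, and 8.69 and 6.58 in control. Lef1, the transcription factor that joins beta-catenin on WNT targets, read 6.98 and 6.87 with tieghemelin, 6.82 and 7.06 with maslinic acid, 7.52 and 7.37 with minoxidil, and 7.12 and 7.74 in control. With all arrays Lef1 differed by under 1.7-fold for every treatment. Against control replicate 2 alone it was lower by -0.82 with tieghemelin and -0.80 with maslinic acid. Those arrays were not above background, and the fold bounds were 1.68 and 1.65 on the deposited scale. These bounds do not allow for the background itself, which was 7.61 on control replicate 2 and 6.96 to 7.08 on those arrays.

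In the hedgehog pathway the ligand Shh was above the highest antigenomic value on all 8 arrays. Shh read 9.76 and 9.70 with tieghemelin, 9.96 and 9.55 with maslinic acid, 9.42 and 9.29 with minoxidil, and 10.004 and 9.72 in control, and it met the thresholds nowhere. Ptch1, the hedgehog receptor and a target of the pathway, read 6.73 and 6.49 with tieghemelin, 7.56 and 6.98 with maslinic acid, 6.42 and 6.58 with minoxidil, and 7.30 and 7.78 in control. It was above background on 1 control array and 1 maslinic acid array. It was lower with tieghemelin (log2 difference -0.93, SE 0.39, limma adjusted p = 0.419) and with minoxidil (-1.04, SE 0.39, adjusted p = 0.44). The fold bounds were 1.46 and 1.09, and 1.72 and 1.28 without control replicate 1. They do not allow for the background, which was 7.75 and 7.61 in control, 7.02 and 6.97 with tieghemelin, and 7.51 and 7.33 with minoxidil. Gli1, a transcription factor that is itself a hedgehog target, read 8.93 and 8.61 with tieghemelin, 8.25 and 8.62 with maslinic acid, 8.71 and 9.19 with minoxidil, and 8.65 and 9.17 in control, and its largest difference, -0.47 with maslinic acid, was within the thresholds. That difference was 0.19 when each array was set against its antigenomic median, a scaling that moved the median of all probe sets to 0.71, so Gli1 lay below that median in both scalings.

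Among FGF members, Fgf22, a ligand of the FGF7 family, had the largest difference. It read 10.19 and 10.01 with tieghemelin, 9.71 and 9.91 with maslinic acid, 8.999 and 9.002 with minoxidil, and 7.30 and 9.65 in control. All tieghemelin and maslinic acid arrays were above both control arrays, and the minoxidil arrays lay between them. The difference from control was 1.62 with tieghemelin (SE 0.67, limma adjusted p = 0.42) and 1.34 with maslinic acid (SE 0.67, adjusted p = 0.478), and without control replicate 1 it was 0.45 and 0.16. Without control replicate 2 it was 2.80 and 2.51. Fgf7, Fgf10, Fgf18 and Fgfr1 were above background on the 7 arrays other than control replicate 1 and met the thresholds against control in no fit with all arrays. Fgfr2, the receptor of FGF7 and FGF10 in epithelium, was lower with minoxidil, at 6.22 and 6.47 against 8.09 and 6.84 in control. The fold bound was 1.03, and control replicate 1 was the only array above background.

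Of the IGF members, Igf1, a growth factor of the dermal papilla, read 9.71 and 9.42 with tieghemelin, 9.49 and 9.83 with maslinic acid, 9.86 and 9.42 with minoxidil, and 8.36 and 10.03 in control, so every treated array lay between the control arrays. Igfbp5, which binds IGFs, read 7.60 and 7.53 with tieghemelin, 7.63 and 7.19 with maslinic acid, 8.55 and 7.86 with minoxidil, and 7.05 and 9.51 in control. Its difference from control depended on the control array. Against both it was -0.71 with tieghemelin and -0.87 with maslinic acid, against control replicate 2 alone -1.94 (limma adjusted p = 0.086) and -2.10 (adjusted p = 0.106), and against control replicate 1 alone 0.51 and 0.36. Igfbp3 read 7.37 and 7.09 with tieghemelin, 7.88 and 8.15 with maslinic acid, 7.39 and 6.40 with minoxidil, and 7.21 and 7.30 in control. Igf1r, the IGF receptor, had its largest difference with minoxidil, -0.75, which was -0.26 without control replicate 1.

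Ccn2, a matrix-associated protein and TGF-beta target, was higher than both control arrays on all 4 arrays of tieghemelin and maslinic acid. It read 8.63 and 8.54 with tieghemelin, 9.04 and 8.67 with maslinic acid, 7.65 and 8.37 with minoxidil, and 6.32 and 7.77 in control. The difference was 1.54 with tieghemelin (SE 0.53, limma adjusted p = 0.41) and 1.81 with maslinic acid (SE 0.53, adjusted p = 0.448), and 0.82 and 1.09 without control replicate 1. Without control replicate 2 it was 2.26 and 2.53. Tgfb1, a ligand of the regression phase, read 8.59 and 8.42 with tieghemelin, 8.58 and 8.22 with maslinic acid, 7.90 and 8.01 with minoxidil, and 8.89 and 8.63 in control, below both control arrays in every case. Its difference with minoxidil was -0.80, or 1.75-fold lower, which passed the study's fold threshold and missed its p threshold (limma adjusted p = 0.442), and it was -0.67 without control replicate 1.

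Vegfa, the main growth factor of blood vessels, was above the highest antigenomic value on all 8 arrays. It read 11.25 and 11.23 with tieghemelin, 11.35 and 11.06 with maslinic acid, 10.05 and 11.16 with minoxidil, and 10.07 and 10.38 in control. The tieghemelin and maslinic acid arrays did not overlap with control, and their differences were 1.02 (SE 0.44, limma adjusted p = 0.425) and 0.98 (SE 0.44, adjusted p = 0.461). They were 0.86 and 0.83 without control replicate 1, and neither met the study's p threshold. Angpt1, a ligand of the endothelial receptor Tie2, had values of 7.53 and 8.46 with minoxidil and 6.98 and 7.28 in control, at least 1.24-fold higher, with an adjusted p of 0.482 by limma. Of the 4 listed endothelial markers, 0 were above background on all 7 arrays other than control replicate 1. On both arrays of a group, 3 were above it with tieghemelin, 3 with maslinic acid, 2 with minoxidil and 0 in control. Of all probe sets, 79.2% and 80.3% were above it on the tieghemelin arrays and 80.3% and 77.7% on the maslinic acid arrays. The shares were 66.2% and 71.4% with minoxidil and 56.9% and 62.4% in control, so they ran the same way. Kdr and Pecam1 were above background on every treated array and on no control array, whereas Tek was above it on tieghemelin replicate 2 and control replicate 2. Hgf, a growth factor of the dermal papilla, read 6.08 and 6.99 with tieghemelin, 7.43 and 6.51 with maslinic acid, 6.78 and 6.84 with minoxidil, and 6.54 and 7.02 in control, and the treated arrays overlapped with control.

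The EGF members were at or under background on nearly all arrays. Egfr, the receptor, ranged from 6.65 to 7.31 and Tgfa, one of its ligands, from 5.86 to 7.46, both below background on all 8 arrays. Egf had values of 5.50 and 5.42 with tieghemelin, 6.44 and 5.26 with maslinic acid, 5.16 and 6.01 with minoxidil, and 7.85 and 6.16 in control. It met the thresholds for tieghemelin at -1.54, with a fold bound of 1.01. With control replicate 1 left out all its values were under background. In the ectodysplasin pathway, which shapes hair placodes and supports follicle cycling, the receptor Edar read 8.94 and 8.67 with tieghemelin, 8.999 and 8.83 with maslinic acid, 9.91 and 8.45 with minoxidil, and 7.79 and 9.05 in control. Its difference was 0.38 with tieghemelin and 0.49 with maslinic acid, and -0.25 and -0.14 without control replicate 1. Eda, its ligand, met the thresholds in no comparison with all arrays.

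**Figure D3:**
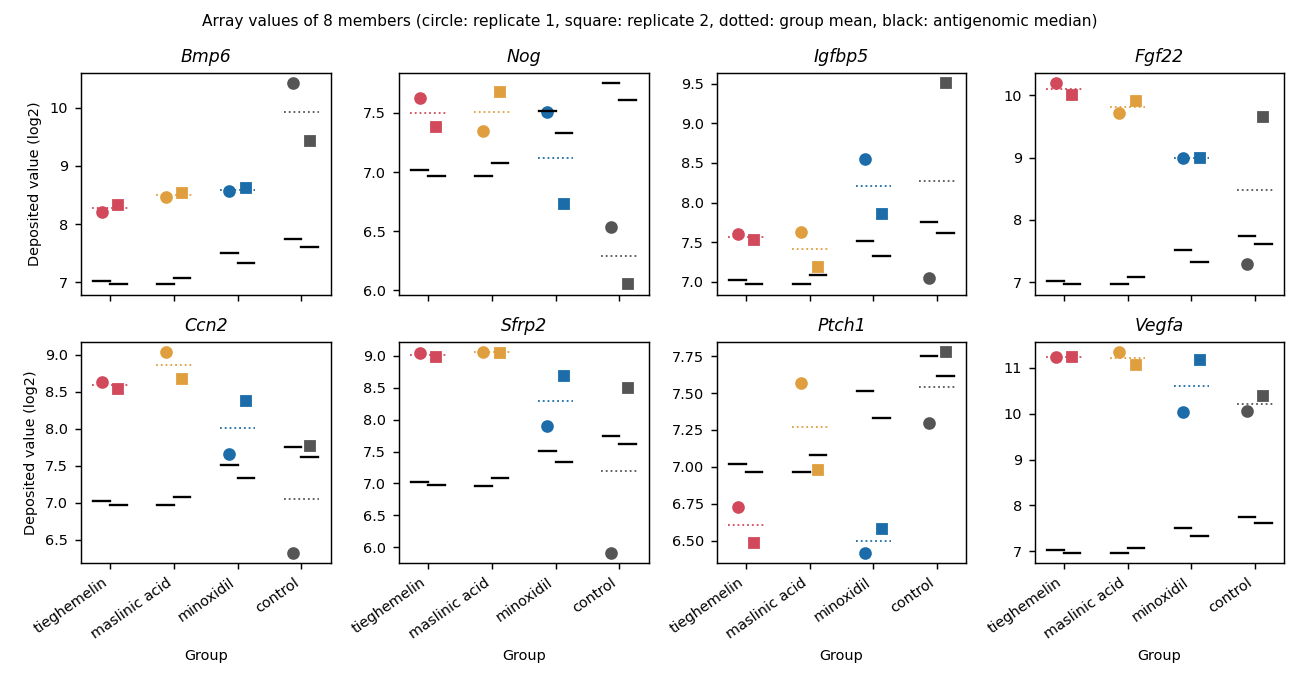
Deposited log2 values of 8 members by group, with a circle for replicate 1, a square for replicate 2, a dotted line for the group mean and a black bar for the antigenomic median of each array. All treated points of Bmp6 lie below both control points, those of Nog lie above both, and the minoxidil points of Fgf22 lie below the tieghemelin and maslinic acid points.

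Between treatments, the 6 treated arrays were fitted alone, and 0 of 50 members had a limma adjusted p under 0.05 in the 3 pairs. At unadjusted p under 0.05 there were 2 for tieghemelin against minoxidil, 7 for maslinic acid against minoxidil and 0 for tieghemelin against maslinic acid, beside 12.8%, 13.6% and 2.28% of all probe sets. At the study's thresholds there was 1 member (Fgf22) for tieghemelin against minoxidil, where 10.4% of all probe sets met them, 6 for maslinic acid against minoxidil, where 11.1% did, and 0 for tieghemelin against maslinic acid, where 1.56% did. Leaving out minoxidil replicate 2 gave 8 members for tieghemelin and 10 for maslinic acid against minoxidil. The tieghemelin count was 4 without minoxidil replicate 1 and 3 without tieghemelin replicate 2, and the maslinic acid count was 3 without either of its own arrays. Between tieghemelin and maslinic acid it was 2 without maslinic acid replicate 2 and 1 without minoxidil replicate 1 or 2, tieghemelin replicate 2 or maslinic acid replicate 1. The shares of all probe sets in these fits with an array left out are not given here. The median 95% interval of a member reached 0.70 to either side of the difference.

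Fgf22 was the clearest difference between treatments among the members. It was 2.14-fold higher with tieghemelin, at 10.19 and 10.01, than with minoxidil, at 8.999 and 9.002, a log2 difference of 1.10 (SE 0.28, interval 0.47 to 1.73, limma adjusted p = 0.223). With maslinic acid, at 9.71 and 9.91, it was higher than with minoxidil by 0.81 (SE 0.28, interval 0.18 to 1.44, limma adjusted p = 0.27). All values were above the highest antigenomic value of their array. With 1 treated array left out at a time, the differences were 1.01 to 1.19 and 0.71 to 0.91.

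Igfbp3, an IGF binding protein, was at least 1.51-fold higher with maslinic acid, at 7.88 and 8.15, than with minoxidil, at 7.39 and 6.40, where neither array was above background (log2 difference 1.12, SE 0.36, limma adjusted p = 0.255). The difference was 1.61 without minoxidil replicate 1 and 0.62 without minoxidil replicate 2. Ccn2 was higher with maslinic acid by 0.84 (SE 0.33, limma adjusted p = 0.304) and Sfrp2 by 0.77 (SE 0.33, adjusted p = 0.342), and Igfbp5 was lower by -0.79 (SE 0.33, adjusted p = 0.331). These 3 were smaller without minoxidil replicate 1, with 0.48 for Ccn2, 0.37 for Sfrp2 and -0.45 for Igfbp5. Without minoxidil replicate 2 they were 1.20, 1.16 and -1.14. Ptch1 was higher with maslinic acid by 0.77 (SE 0.31, limma adjusted p = 0.318), with 1 of 4 arrays above background and no fold, and by 0.48 without maslinic acid replicate 1. Id2 was lower with maslinic acid than with minoxidil by -0.64 (interval -1.27 to -0.004), under the 1.7-fold threshold.

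Tieghemelin and maslinic acid were compared at the same labelled dose and time. The 50 differences lay between -0.78 (Igfbp3, interval -1.59 to 0.02) and 0.33 (Gli1, interval -0.37 to 1.03), with a median of -0.01. For Fgf22 the difference was 0.29, from 2 tieghemelin arrays that both read higher than the 2 maslinic acid arrays. For Bmp6 it was -0.23 (interval -0.85 to 0.39), for Nog -0.01 (-0.76 to 0.74), for Sfrp2 -0.04 (-0.76 to 0.69), for Vegfa 0.03 (-0.80 to 0.86) and for Shh -0.03 (-0.68 to 0.62). Intervals that reach about 0.70 to either side do not show that the 2 compounds act alike on these genes.

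**Figure D4:**
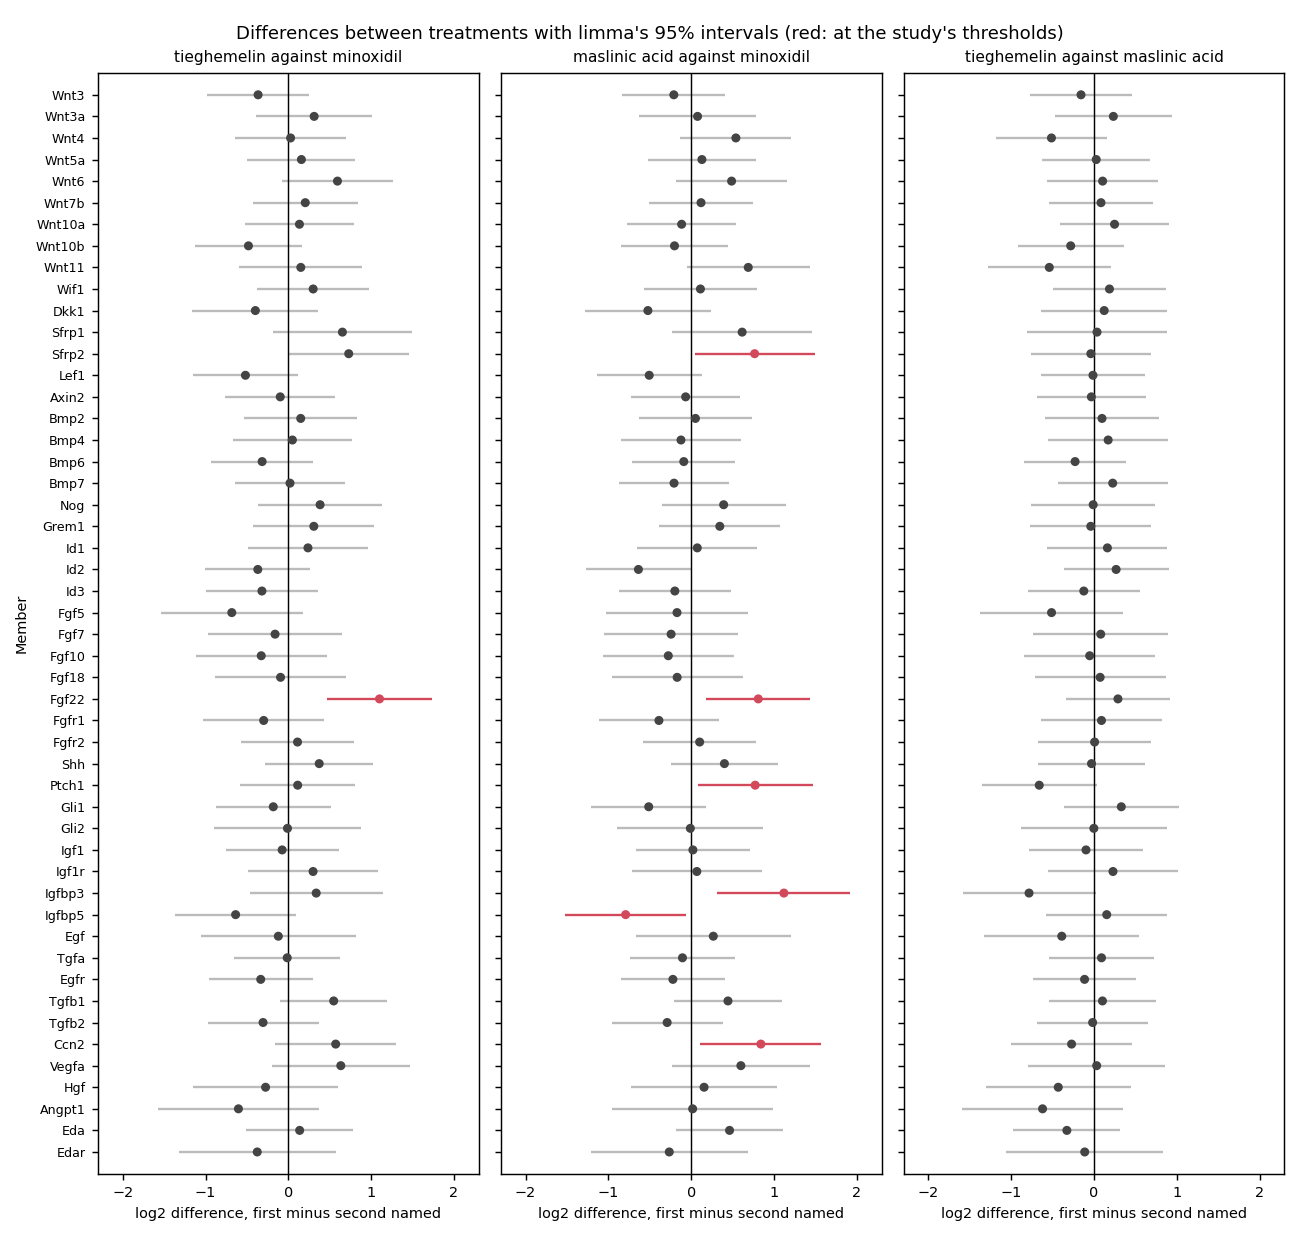
The log2 difference of each member (rows) between treatments, first minus second named, in 3 panels, with limma's 95% intervals as lines and members at the study's thresholds in red. Fgf22 is red in the panel of tieghemelin against minoxidil, 6 members are red for maslinic acid against minoxidil, and 0 for tieghemelin against maslinic acid.

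Divided by side of the hair cycle, the 13 members placed on the rest side were lower than control more often than higher in every comparison with control. The numbers depend on that placement, which was made with earlier results of these data known. With tieghemelin 3 were higher and 10 lower, with maslinic acid 3 and 10, and with minoxidil 4 and 9. Without control replicate 1 the numbers were 2 and 11, 3 and 10, and 5 and 8. On the growth side 8 of 21 were higher and 13 lower for tieghemelin and for maslinic acid and 10 higher and 11 lower for minoxidil, and the numbers were 11 and 10, 11 and 10, and 12 and 9 without control replicate 1. Of all probe sets 52.4%, 52.7% and 53.3% were higher than control, and 51.2%, 50.5% and 53.4% without control replicate 1.

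The median difference of the rest side was -0.26 with tieghemelin, -0.37 with maslinic acid and -0.26 with minoxidil, and that of the growth side -0.14, -0.11 and -0.02. Without control replicate 1 the rest side was at -0.34, -0.31 and -0.16 and the growth side at 0.00, 0.01 and 0.10. When each array was set against its antigenomic median, the median over all probe sets moved to 0.73, 0.71 and 0.32, the rest side to 0.43, 0.29 and -0.004 and the growth side to 0.55, 0.55 and 0.24, so that the sign of the rest side flipped with tieghemelin and maslinic acid while both sides stayed under the median of all probe sets. Between treatments, on the deposited scale, the medians of both sides were within 0.10 of 0. Relative to the antigenomic median they were 0.41 on the growth side and 0.47 on the rest side for tieghemelin against minoxidil, 0.42 and 0.31 for maslinic acid against minoxidil, and -0.003 and 0.12 for tieghemelin against maslinic acid, beside 0.40, 0.37 and 0.03 over all probe sets. Of the 13 rest members, 5 were below background on the 7 arrays other than control replicate 1, and with the rest side limited to members above it on an array of either group, 2 were higher and 6 lower for tieghemelin and for maslinic acid, and 3 higher and 4 lower for minoxidil. On the growth side the same limit left 7 higher and 12 lower for tieghemelin, 6 and 12 for maslinic acid, and 6 and 10 for minoxidil. The medians were then -0.25, -0.36 and -0.24 on the rest side and -0.19, -0.33 and -0.23 on the growth side, so with all arrays the sides lay close together. Without control replicate 1 the same limit gave medians of -0.20, -0.32 and -0.16 on the rest side. On the growth side they were 0.004, -0.09 and -0.24. The rest side was thus the lower for tieghemelin and maslinic acid and the higher for minoxidil. No test was made over the members of a side, and the sides are not shown to differ.

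**Figure D5:**
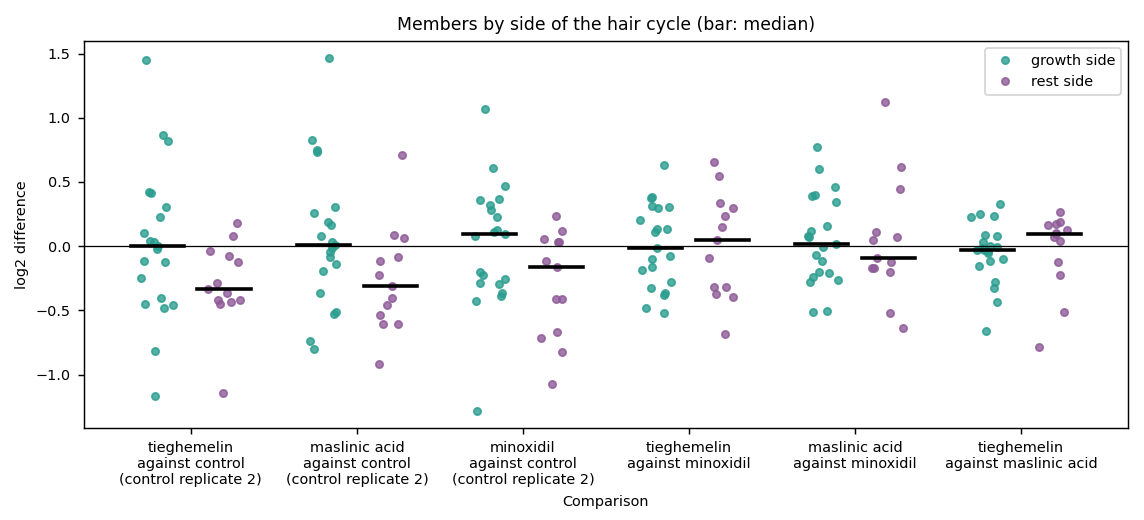
The log2 differences of the growth side (21 members, green) and the rest side (13 members, purple) in 6 comparisons, with the median as a bar, where the comparisons with control use control replicate 2 alone. The purple bars lie at -0.34, -0.31 and -0.16 in the comparisons with control, and all bars between treatments lie within 0.10 of 0.

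Beyond the members, 175 other genes of the same pathways were listed and 164 had a probe set. At the study's thresholds there were 12 for tieghemelin, 10 for maslinic acid and 12 for minoxidil against control, and 17 for tieghemelin and 16 for maslinic acid against minoxidil, and 3 for tieghemelin against maslinic acid, with 0 at a limma adjusted p under 0.05. As shares of 164 these were 7.32%, 6.10% and 7.32% against control, 10.4% and 9.76% against minoxidil and 1.83% between tieghemelin and maslinic acid, beside 11.7%, 10.8%, 11.3%, 10.4%, 11.1% and 1.56% of all probe sets. Axin1, a scaffold of the complex that degrades beta-catenin, read 9.74 and 9.24 with tieghemelin, 9.13 and 9.87 with maslinic acid, and 7.10 and 8.48 with minoxidil, a difference from minoxidil of 1.70 (limma adjusted p = 0.232) and 1.71 (adjusted p = 0.193). Klb, a co-receptor of FGF signalling, was above background on every treated array and on no control array, and was at least 1.63-fold higher with maslinic acid, 1.13-fold with tieghemelin and 1.20-fold with minoxidil. Bmp5, a BMP ligand, read 9.19 and 9.69 with tieghemelin, 7.28 and 8.65 with minoxidil, and 7.19 and 8.43 in control, higher with tieghemelin than with minoxidil by 1.48 and than control by 1.63. Fstl1, a secreted follistatin-related protein, was lower with tieghemelin, at 7.78 and 8.11, than with maslinic acid, at 8.82 and 9.12, and than with minoxidil, at 10.17 and 8.90.

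Among the other pathway genes that met the thresholds against control without overlap, several were above background in the treated group alone. With maslinic acid, Erbb3, a receptor of the EGF family, was at least 1.78-fold higher, at 8.18 and 8.85 against 6.97 and 7.24 in control. Fgf1, an FGF ligand, was at least 1.51-fold higher, at 8.40 and 8.17 with maslinic acid against 6.94 and 7.11 in control. Fgf1 also met the thresholds with tieghemelin, at 8.36 and 7.96, and with minoxidil, at 8.26 and 7.91. Wnt9a, a WNT ligand, was at least 1.15-fold higher, at 7.77 and 7.99 with maslinic acid against 6.60 and 6.82 in control. With tieghemelin, Hgfac, a protease that activates HGF, was at least 1.037-fold higher, at 8.00 and 7.46 against 5.52 and 6.53 in control. Smad7, an inhibitor of TGF-beta and BMP signalling, was below background on all 8 arrays. With all arrays Smad7 met the thresholds as lower than control for each treatment, and without control replicate 1 for none. With minoxidil, Tcf7l1, a TCF factor that represses WNT targets, read 9.45 and 9.19 against 7.504 and 8.38 in control, a difference of 1.38 (SE 0.42). Twsg1, a secreted BMP-binding protein, read 9.31 and 10.12 with minoxidil against 7.88 and 9.04 in control, a difference of 1.25 (SE 0.49). Csnk1a1, a kinase that marks beta-catenin for degradation, read 5.80 and 7.43 with minoxidil against 7.88 and 8.24 in control, a difference of -1.45 (SE 0.58).

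Between treatments, Bmpr2, a BMP receptor, read 10.15 and 9.48 with maslinic acid against 8.79 and 8.503 with minoxidil, a difference of 1.17 (SE 0.32). Fzd3, a WNT receptor, was higher with maslinic acid by 0.96 (SE 0.33), at 8.26 and 8.20 against 6.93 and 7.62 with minoxidil. Erbb2, a co-receptor of the EGF family, was lower by -1.16 (SE 0.31), at 7.14 and 6.58 with maslinic acid against 7.91 and 8.13 with minoxidil. Between tieghemelin and maslinic acid, Erbb3 differed by -1.07 (SE 0.33) with 7.61 and 7.27 for tieghemelin, and Acvr2a, an activin and BMP receptor, by -0.88 (SE 0.37) with 8.63 and 9.41 for tieghemelin against 10.11 and 9.70 for maslinic acid. The limma adjusted p of these pathway genes was at least 0.193 in each of the 6 comparisons.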

How the data were processed

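RNA of 8 dorsal skin samples from mice was measured on Clariom S Mouse arrays, 2 per group. The deposited log2 values were made by the authors with Affymetrix Expression Console and RMA, per the submitters' processing notes, and with Transcriptome Analysis Console 4.0.1, per the series' design text. That the scale is log2 was read from the range of the values. The genome build is not given in the sources used here.

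Of 28846 deposited probe sets, 6640 control probe sets were left out of the tests, and 22206 were fitted with limma 3.58.1 in R 4.3.3 with Benjamini-Hochberg adjustment over all of them. A single symbol named 19572 and none named 2634. Comparisons with control used all 8 arrays (4 residual degrees of freedom), and pairs of treatments used the 6 treated arrays (3 residual degrees of freedom). Each comparison was also made without each array in turn, and without control replicate 1 beside the main values. An exact permutation test of 2 arrays against 2 cannot give a two-sided p under 0.333, so none is reported, and the number of arrays limits the precision. A fold against a group with no array above its antigenomic median is a bound, the brighter mean over the mean of, per array, the higher of that median and the value. It does not allow for the difference of that median between arrays. Where control, with the higher medians, was the brighter group, the bound is therefore not a strict lower limit. The fits were tested on simulated data.

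Replicate numbers were checked for pairing by the correlation of deviations from group means, which ran between -0.170 and 0.0902 over the 6 pairs of groups, so the numbers were not taken to pair the arrays. Alternatives were a replicate block, brighter probe sets alone, quantile normalization, a common median, limma's trended and robust variance, array weights, the 2 groups compared alone, all 8 arrays for pairs of treatments, and the antigenomic median as zero. Members, lists and named genes were chosen with earlier results of these data known. Values by array are given for members at the study's thresholds whose groups do not overlap, for the member of each pathway with the largest difference from control, for the pathway read-outs Axin2, Lef1, Id1, Id2, Id3, Ptch1 and Gli1, and, of the other pathway genes, for up to 4 per comparison with the largest difference among those at the thresholds with no overlap. Some further members were given values by array after these were seen.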

Additional observations from a re-analysis of the deposited data

How the results depend on the processing

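The member counts at the study's thresholds depended on the choices made, and the cause was not tested where counts changed. For most of these settings the share of all probe sets meeting the thresholds is not given here. Those counts therefore cannot be set against a background share. For tieghemelin against control (8) the count was 3 with brighter probe sets alone, 4 with array weights and 2 with the 2 groups alone, and ran between 1 and 23 when 1 array was left out. For maslinic acid against control (5) it was 3 under each of these 3 settings and 11 relative to the antigenomic median, with a range of 2 to 26. For minoxidil against control (4) it was 1, 0 and 1 under the same 3 settings and 7 with a common median, with a range of 1 to 24. The highest counts all came without control replicate 2, where 19, 19 and 21 members had a limma adjusted p under 0.05, against 0 with any other array left out. In those fits 37.9%, 37.3% and 37.7% of all probe sets also passed, and control replicate 1, the array that stood apart, is the only control array, shared by all 3 comparisons. For tieghemelin against minoxidil (1) the count was 9 relative to the antigenomic median and 0 with all 8 arrays, with a range of 1 to 8. With that antigenomic scaling 1 member passed the adjusted threshold, Fgf22, at a difference of 1.53 (limma adjusted p = 0.0401). The same scaling moved the median of all probe sets from -0.03 to 0.40 in this comparison. The share of all probe sets that passed with it is not given here. For maslinic acid against minoxidil (6) the count was 3 with brighter probe sets alone, 14 relative to the antigenomic median and 1 with all 8 arrays, with a range of 3 to 10. The antigenomic scaling moved the median of all probe sets from -0.03 to 0.37 in this comparison. For tieghemelin against maslinic acid (0) it was 1 with array weights, with the 2 groups alone and with a crossed replicate block, chosen after seeing the data, and 0 to 2 with 1 array left out. The replicate block gave 6, 4 and 3 members for tieghemelin, maslinic acid and minoxidil against control and 1, 6 and 0 for the pairs of treatments, with 0 at an adjusted p under 0.05. Quantile normalization and limma's trended and robust variance kept these counts within 1.5 times.

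Setting each array against its antigenomic median moved the median of all probe sets to 0.73, 0.71 and 0.32 for tieghemelin, maslinic acid and minoxidil against control, and that of the members to 0.44, 0.32 and 0.10. Gli1 with maslinic acid against control was 0.19 there, still below the median of all probe sets. With 1 array left out, Edar ran between -0.25 and 1.02 with tieghemelin and between -0.14 and 1.13 with maslinic acid, and Igfbp5 between -1.94 and 0.51 and between -2.10 and 0.36. Of the values of named members under alternatives, 435 kept their direction and side of the thresholds, 125 kept the direction and no longer met them, 18 met them newly and 5 turned. With 2 arrays a group, signals around or under the antigenomic median limit what can be said of many members. Over the 7 arrays other than control replicate 1, 16 members were above that median on none and 11 on some.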
